A study of Mus musculus with 12 samples.

Results

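The zinc finger gene families of the mouse kidney were followed through ischemia and reperfusion (I/R) injury in RNA sequencing data. Members were the protein-coding genes whose symbols begin with Zfp followed by a digit, Zkscan, Zscan, Zbtb or Zik1, which gave 135 of the 16383 genes in the table. The table as used here held 6440 protein-coding genes, and family genes outside it were not followed. The members comprised 113 Zfp, 12 Zbtb, 6 Zkscan and 4 Zscan genes, and no gene with a Zik1 symbol was found. The comparison covered 4 groups of 3 libraries each: WT sham, WT I/R and, labelled as lacking Lrrk2 (leucine-rich repeat kinase 2), the groups KO sham and KO I/R. In the I/R groups the left kidney was made ischemic for 30 min at 37 °C and the opposite kidney was removed. Sham animals had the operation, including the removal, without the ischemia, so every group had lost a kidney. For strain, sex, age, reperfusion time and the Lrrk2 allele the labels give no entry. Nothing states that the libraries came from separate animals, and the p-values reflect the spread among these libraries alone, which may be technical.

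Classical zinc fingers of the C2H2 type are short loops in which a pair of cysteines and a pair of histidines hold a zinc ion, and rows of them read DNA sequence. Many mouse Zfp proteins also carry a KRAB domain, which recruits the corepressor Trim28 and, through it, the histone methyltransferase Setdb1, and a large part of the KRAB zinc finger proteins silence transposable elements. Zbtb proteins carry a BTB domain for dimerization and corepressor binding, and Zscan and Zkscan proteins carry a SCAN domain, with KRAB in addition in Zkscan. The Zfp symbol is also borne by proteins of other kinds, such as the mRNA decay factor Zfp36l2, whose fingers are of the CCCH type.

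A KRAB A box pattern was found in the coding sequence of 68 members and was absent from 66. Zfp469 has no coding transcript in GENCODE release M21, where it is listed as a lincRNA, and was not classed. The pattern misses diverged domains, so Zkscan3 falls among the members without it. KRAB members had a median of 11.5 fingers by pattern and the others a median of 5, with a highest number of 30 in Zfp236 and Zfp729b. Of the 68 KRAB members, 55 had another gene of these families within 200 kb, against 18 of the 66 others. Neighbours were counted among all protein-coding genes of GENCODE M21 with such symbols, in the table or not. The class rested on a match to any of several patterns of the box in any coding transcript. The coding DNA below shows part of the KRAB A box in 5 of the KRAB members that passed the test after I/R. Capitals mark the codons of 3 residues at the core of this part.
Zfp866: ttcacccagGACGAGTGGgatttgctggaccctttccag
Zfp563: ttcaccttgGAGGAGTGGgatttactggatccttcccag
Zfp316: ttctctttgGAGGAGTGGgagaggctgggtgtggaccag
Zfp39: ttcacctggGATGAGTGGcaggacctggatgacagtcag
Zfp965: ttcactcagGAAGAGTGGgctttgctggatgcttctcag
These stretches lie at chr8:69769176-69769214, minus strand (Zfp866), chr17:33102264-33102302, plus strand (Zfp563), chr5:143263351-143263389, minus strand (Zfp316), chr11:58900620-58900658, minus strand (Zfp39) and chr2:175478032-175478070, plus strand (Zfp965), each within 1 coding exon of GRCm38 as annotated in GENCODE M21. The next 4 stretches each encode a single C2H2 finger, with capitals for the codons of the cysteines and histidines that bind zinc. They were picked by the finger pattern, as examples from members which rose (Zfp697 and Zfp64) and members which fell (Zbtb20 and Zfp866).
Zfp697: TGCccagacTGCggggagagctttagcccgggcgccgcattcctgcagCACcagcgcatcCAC
Zfp64: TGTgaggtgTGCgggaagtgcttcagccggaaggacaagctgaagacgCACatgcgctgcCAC
Zbtb20: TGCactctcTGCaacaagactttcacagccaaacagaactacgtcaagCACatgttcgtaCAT
Zfp866: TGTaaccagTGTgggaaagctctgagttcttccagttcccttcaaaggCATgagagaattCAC
They lie at chr3:98427530-98427592, plus strand (Zfp697), chr2:168935383-168935445, minus strand (Zfp64), chr16:43610865-43610927, plus strand (Zbtb20) and chr8:69766417-69766479, minus strand (Zfp866), also in single coding exons.

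Promoter windows from RefSeq (GRCm38.p6, 250 bases before to 50 after the start) were at hand for 105 members. Of the windows read for 8 members that passed the test after I/R, those of 2 KRAB members that fell and of 1 member that rose are shown, since they hold the most motif matches. Capitals mark matches on either strand to CCGGAAG (the core bound by ETS factors), CCAAT (the CCAAT box) and GGGCGG (the GC box).
Zfp316: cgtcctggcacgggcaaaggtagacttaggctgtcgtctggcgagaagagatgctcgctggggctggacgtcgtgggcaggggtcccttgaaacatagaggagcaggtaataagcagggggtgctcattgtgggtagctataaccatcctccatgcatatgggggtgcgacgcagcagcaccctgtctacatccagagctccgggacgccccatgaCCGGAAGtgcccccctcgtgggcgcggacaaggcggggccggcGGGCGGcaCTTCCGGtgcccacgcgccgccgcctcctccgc
Zfp39: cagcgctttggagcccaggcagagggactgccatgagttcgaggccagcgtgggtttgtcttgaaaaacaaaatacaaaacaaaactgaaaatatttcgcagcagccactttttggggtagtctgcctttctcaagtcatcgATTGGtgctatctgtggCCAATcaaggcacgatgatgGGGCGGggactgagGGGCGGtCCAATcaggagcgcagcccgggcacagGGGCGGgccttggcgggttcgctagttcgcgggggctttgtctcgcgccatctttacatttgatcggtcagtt
Zfp598: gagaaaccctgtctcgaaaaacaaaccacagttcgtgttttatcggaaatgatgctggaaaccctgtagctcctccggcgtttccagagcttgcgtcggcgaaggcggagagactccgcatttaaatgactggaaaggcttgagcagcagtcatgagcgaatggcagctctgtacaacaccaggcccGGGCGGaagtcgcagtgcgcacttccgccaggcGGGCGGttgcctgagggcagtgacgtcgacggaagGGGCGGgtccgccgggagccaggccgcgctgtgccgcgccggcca
The windows lie at chr5:143269973-143270272, minus strand (Zfp316), chr11:58904176-58904475, minus strand (Zfp39) and chr17:24669437-24669736, plus strand (Zfp598). The Zfp316 window holds 2 ETS cores and 1 GC box, the Zfp39 window 3 CCAAT boxes and 3 GC boxes, and the Zfp598 window 3 GC boxes. The windows of Zfp697 and Zfp580, which also rose, hold no match to any of the 3, and those of Zfp64, Zbtb20 and Zfp866 hold 1 CCAAT box each and 0 or 1 GC box. Among members, 22.9% had an ETS core, 55.2% a CCAAT box and 52.4% a GC box, against 9.93%, 41.1% and 38.2% of the 27025 genes in the table of promoters. A gene counted if any of its windows matched, and no filter on gene type was applied to the 27025 genes. The other 4 motifs searched were rarer: an AP-1 site (TGANTCA) was in 6.67% of members and 8.97% of all genes, an E-box (CACGTG) in 7.62% and 8.09%, a TATA box (TATAAA) in 9.52% and 15.7%, and a CRE (TGACGTCA) in 2.86% and 2.03%. CCAAT boxes were in 64.8% of the 54 KRAB members with a window and in 45.1% of the 51 others, whereas GC boxes were in 40.7% and 64.7%. Matches of different motifs shared letters in 5 of the 133 windows of members. These are matches of letters, not sites shown to be bound.

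Total counts over the table lay between 4678827 and 5456261 per library, and members took 0.368% to 0.618% of them. The libraries KO sham 3, KO sham 1 and KO I/R 2 stood apart. KO sham 3 had 24.7% of its counts on mitochondrial genes, against 5.64% to 10.7% in the other libraries. KO sham 1 had 230.2 CPM (counts scaled to library size, in edgeR's usual unit) of the injury marker Havcr1, against 1.073 to 21.8 CPM in the other sham libraries. In KO I/R 2 the deposited counts do not follow the deposited FPKM values (fragments per kilobase, scaled to library size), and its FPKM column corresponds to 24696 reads over the members where its count column holds 17851. Lrrk2 counts were 1284 to 2053 in WT sham, 320 to 464 in WT I/R, 207 to 1651 in KO sham and 235 to 793 in KO I/R, so they do not separate the labelled genotypes, and KO stands for the label only. After I/R the 5 measured markers of tubular injury summed to 20843 to 28863 CPM in WT and 21128 to 42772 CPM in KO, against 618 to 1531 CPM in the sham libraries. The 5 proximal tubule markers summed to 1469 to 1723 CPM in WT I/R and 1054 to 1382 CPM in KO I/R, against 3683 to 7604 CPM in sham. Of these 5, 4 fell in each genotype, and Slc5a2 had log2 changes of 0.04 in WT and -0.78 in KO that did not pass. Markers of other cell types moved too: 2 of 2 measured neutrophil markers rose in both genotypes (18.5 to 39.4 CPM summed in I/R, 1.35 to 8.32 CPM in sham), and 2 of 2 fibroblast markers rose in WT and 1 of 2 in KO (211 to 583 CPM, 128 to 219 CPM). Of 4 macrophage markers 1 rose and 2 fell in each genotype (66.5 to 116 CPM, 206 to 292 CPM), of 3 tested lymphocyte markers 1 fell in WT and 3 in KO (1.29 to 3.83 CPM over 4 in I/R, 6.69 to 15.3 CPM in sham), and of 3 loop and distal tubule markers 2 fell in each. Of 5 collecting duct markers 2 fell in WT and 1 in KO. Among all of these the lymphocyte marker Ms4a1 was at 0 in WT I/R and no other marker was at 0 in a whole group, and podocyte and endothelial markers were not analysed here.

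Most members were expressed at low levels in the kidney. Over the WT sham libraries the median member stood at 0.711 FPKM, and 58 of the 135 exceeded 1 FPKM. KRAB members had a median of 0.499 FPKM and the others of 1.33 FPKM. The highest level was that of Zfp36l2, which binds AU-rich elements and promotes mRNA decay, at 19.6 ± 10.3 FPKM (SD, n = 3). It was followed by Zfp598 at 11.3 ± 1.85 FPKM, Zbtb7b at 11.2 ± 1.42 FPKM, Zfp106 at 8.49 ± 0.68 FPKM and Zfp35 at 8.30 ± 1.42 FPKM. Zfp598 is the ubiquitin ligase that marks collided ribosomes, and Zbtb7b is known as a lineage factor of CD4+ T cells. Zfp598 and Zbtb7b lay within each other's spread, as did Zfp106 and Zfp35, and 1 SD below the mean of Zfp36l2 reached the levels of Zfp598 and Zbtb7b. The 4 members Zkscan16, Zfp474, Zscan4d and Zscan4-ps2 had no count in any library, and 15 members with 0 to 72 counts over all 12 libraries were too low to be tested. The filter left 120 members: 102 Zfp, 12 Zbtb, 4 Zkscan and 2 Zscan genes.

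After I/R the zinc finger genes as a group lay somewhat lower than in sham, in both genotypes, while a small set of them rose. In WT the median log2 change of the 120 members was -0.20, against -0.04 over all 5048 genes tested, and 78 members lay below 0. In KO the median was -0.36, against -0.08 over all genes, and 86 members lay below 0. Testing each gene with edgeR's quasi-likelihood test at a Benjamini-Hochberg adjusted p under 0.05, 7 members rose and 5 fell in WT, together 12 of 120, where 20.9% of all genes passed (10.2% higher and 10.7% lower) and 21.8% of the protein-coding genes. In KO 8 members rose and 8 fell, together 13.3%, where 23.5% of all genes passed (11.9% higher and 11.5% lower) and 24.1% of the protein-coding genes. Leaving out 1 library gave 3 (without WT I/R 2) to 21 (without KO sham 3) in WT and 9 (without KO sham 1 or KO sham 2) to 20 (without KO sham 3) in KO. With whole-library totals 7 rose and 1 fell in WT, where the member median became -0.05 and the all-gene median 0.10, and 6 rose and 2 fell in KO. The shares of all genes called under these alternatives are not given here. Most changes were below 2-fold, in 102 members in WT and 97 in KO (85.0% and 80.8%, against 69.3% and 68.5% of all genes). Many members had low counts, and the square root of the common dispersion over all genes tested was 0.375. Whether low counts bear on the share of members called was not tested.

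The same picture is seen library by library. The median member, set against its WT sham mean on the log2 CPM scale, stood at -0.17, -0.24 and -0.26 in the 3 WT I/R libraries and at -0.02, -0.05 and 0.05 in WT sham, so these groups did not overlap. In KO sham the medians were 0.23, 0.08 and 0.08, and in KO I/R they were -0.07, -0.43 and -0.09, again without overlap, with KO I/R 2 the lowest of the 12 libraries. Over all genes tested the medians stayed between -0.09 and 0.02 in every library. In single genes, 17 members were higher and 34 lower in WT I/R without overlap between the groups (14.2% and 28.3%), where all genes gave 27.6% in each direction. In KO 9 members were higher and 23 lower without overlap (7.50% and 19.2%), where all genes gave 17.6% and 17.8%. In bulk kidney RNA, fewer cells of a type and less RNA per cell cannot be told apart. The marker changes given above, of tubule, injury, neutrophil, fibroblast, macrophage and lymphocyte markers, moved with these groups, and their part in the medians was not tested.

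**Figure D1:**
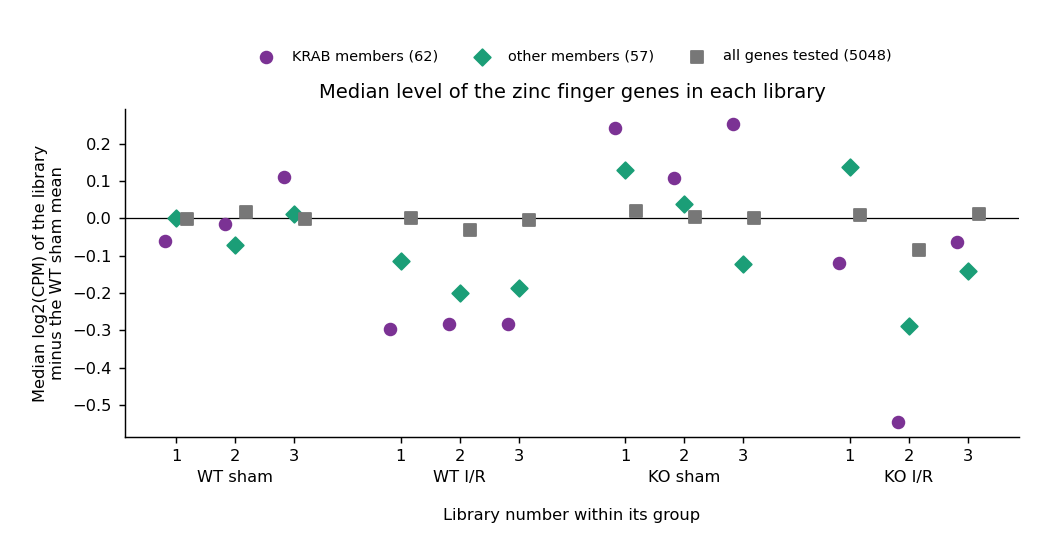
Median log2 CPM of each library minus the WT sham mean (y axis, log2 units) for KRAB members, other members and all genes tested, with the 12 libraries on the x axis by group. KRAB members sit at -0.28 to -0.30 in WT I/R and at 0.11 to 0.25 in KO sham. In KO I/R 1, 2 and 3 they sit at -0.12, -0.55 and -0.06. The all-gene medians stay between -0.09 and 0.02.

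The KRAB members had the lower medians. This split was chosen after the values were seen and carries no test. In WT the median log2 change of the 62 tested KRAB members was -0.31, with 44 below 0, and that of the 57 others was -0.13, with 34 below 0. In KO the medians were -0.46 and -0.17, with 53 of 62 and 33 of 57 below 0. Set against WT sham, the KRAB medians of KO I/R 1, 2 and 3 were -0.12, -0.55 and -0.06. Those of the others were 0.14, -0.29 and -0.14, so in KO I/R 3 the KRAB median was the higher. The KRAB medians of KO sham 1, 2 and 3 were 0.24, 0.11 and 0.25. No KRAB member passed the test upward in either genotype, whereas 2 in WT and 5 in KO passed downward. These are 3.23% and 8.06% of the tested KRAB members, below the 10.7% and 11.5% of all genes that passed downward. Among the others, 6 rose and 3 fell in WT, and 7 rose and 3 fell in KO, and the rises, at 10.5% and 12.3%, were near the 10.2% and 11.9% of all genes. Lower without overlap were 20 KRAB members in WT I/R and 15 in KO I/R (32.3% and 24.2%, all genes 27.6% and 17.8%). Higher without overlap were 4 in WT I/R and 1 in KO I/R (6.45% and 1.61%, all genes 27.6% and 17.6%). Among these, Zfp992, which has a near copy in Zfp991, stood at 2.22 ± 1.04 and 4.90 ± 0.69 CPM in WT and at 1.78 ± 0.46 and 4.73 ± 1.78 CPM in KO (edgeR adjusted p = 0.055 in KO). Below 0 in both genotypes were 41 of the 62 KRAB members (66.1%) and 27 of the 57 others (47.4%), against 43.7% of all genes.

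The KRAB medians were alike with and without neighbours. KRAB members with another family gene within 200 kb had median log2 changes of -0.31 in WT and -0.45 in KO, and those without one had -0.30 and -0.48. Leaving out members with a near copy (at least 95% identity over at least 50% of the coding sequence), the 51 remaining KRAB members had medians of -0.26 and -0.48. The 12 tested members with a near copy had medians of -0.66 in WT and -0.37 in KO, against -0.16 and -0.36 for the 108 without one. By symbol, the 12 Zbtb genes had medians of 0.29 in WT and 0.07 in KO, with 7 above and 5 below 0 in each genotype. Of these, 0 rose and 1 fell in WT, and 1 rose and 1 fell in KO, where 20.9% and 23.5% of all genes passed in either direction. The 102 Zfp genes had medians of -0.23 and -0.37, and the 4 Zkscan genes of -0.15 and -0.34. The KRAB median lay below that of the other members and below that of all genes in each of 26 settings for both genotypes. Many of these settings leave the libraries of a contrast unchanged and could hardly move it, so the count is no independent support. The size of the KRAB median depended on scaling. With whole-library totals and the reads recovered for KO I/R 2, the all-gene median moved up by over 0.1 to 0.10 in WT and to 0.03 in KO. The KRAB medians were then -0.17 and -0.25, and those of the other members -0.01 and -0.02.

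**Figure D2:**
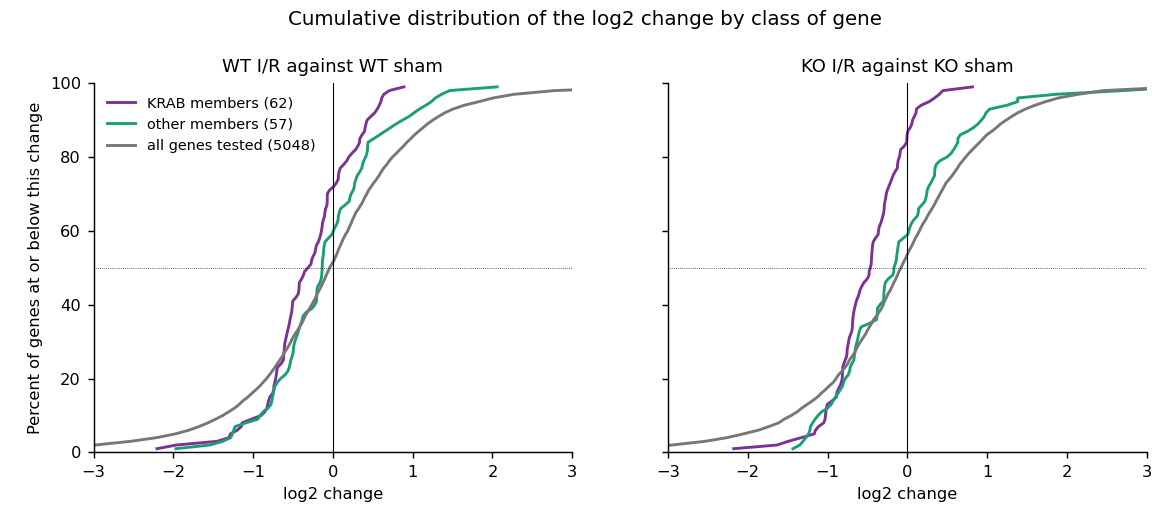
Cumulative share of genes (y axis, percent) at or below each log2 change (x axis), for KRAB members, other members and all genes tested, after I/R in WT (left) and KO (right). The KRAB curve crosses 50% at -0.31 in WT and -0.46 in KO, left of the all-gene curve at -0.04 and -0.08, and ends sooner on the right.

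In both genotypes 7 members rose (5.83%, where 7.07% of all genes did so): Zfp697, Zfp64, Zfp580, Zfp385a, Zfp598, Zfp469 and Zfp365. None of them had the KRAB pattern, and Zfp469 was not classed. Zfp697, a C2H2 protein, stood at 80.9, 102 and 72.2 CPM in WT sham and at 163, 178 and 195 CPM in WT I/R. It stood at 121, 132 and 136 CPM in KO sham and at 235, 225 and 265 CPM in KO I/R. Every I/R library was above every sham library, and every KO library above every WT library of the same surgery. The rise was 2.10-fold in WT (log2 1.07 ± 0.20 SE, edgeR adjusted p = 0.0035) and 1.87-fold in KO (log2 0.90 ± 0.20 SE, edgeR adjusted p = 0.0076).

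Zfp64, known as an activator of the leukaemia gene KMT2A in human cells, was among the steadiest members. Its level was 41.3, 44.5 and 42.3 CPM in WT sham and 87.3, 83.0 and 78.9 CPM in WT I/R. It was 42.4, 39.5 and 49.6 CPM in KO sham and 82.0, 78.9 and 68.9 CPM in KO I/R. Sham and I/R libraries did not overlap, and the ranges of the genotypes overlapped. The rise was 1.95-fold in WT (log2 0.96 ± 0.19 SE, edgeR adjusted p = 0.0047) and 1.75-fold in KO (log2 0.81 ± 0.19 SE, edgeR adjusted p = 0.011).

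Zfp598, the sensor of collided ribosomes, changed less but from a high level. It stood at 175, 241 and 195 CPM in WT sham and at 331, 355 and 300 CPM in WT I/R. In KO it stood at 212, 198 and 225 CPM in sham and at 337, 345 and 302 CPM in I/R. The groups did not overlap in either genotype, and the rise was 1.61-fold in WT and 1.55-fold in KO (edgeR adjusted p = 0.024 and 0.032). Zfp580 rose from 18.2 ± 2.25 to 45.1 ± 8.64 CPM in WT (SD, n = 3) and from 15.95 ± 2.53 to 41.7 ± 16.5 CPM in KO. Zfp385a, an RNA-binding protein induced by p53, rose from 25.6 ± 7.67 to 59.5 ± 6.36 CPM in WT and from 27.2 ± 6.13 to 71.0 ± 25.6 CPM in KO. In both genes every I/R library lay above every sham library of its genotype. The WT calls of Zfp598, Zfp580 and Zfp385a were each lost when WT I/R 2 or WT sham 3 was left out, with an edgeR adjusted p of up to 0.101 over the alternatives. The KO call of Zfp598 was lost in 11 of 24 alternatives (edgeR adjusted p of up to 0.168), among them the omission of KO I/R 2.

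Larger rises shared by the genotypes were in 2 genes of very low level in sham kidney. Zfp469, whose human counterpart is mutated in brittle cornea syndrome, stood at 0.197 to 1.26 CPM in WT sham and at 4.39 to 7.29 CPM in WT I/R. In KO it stood at 0.58 to 1.07 CPM in sham and at 4.09 to 8.68 CPM in I/R. Its log2 change was 3.28 ± 0.65 SE in WT and 2.86 ± 0.62 SE in KO (edgeR adjusted p = 0.0049 and 0.0077). Zfp365, which has no C2H2 finger by pattern, went from 0.333 ± 0.41 to 2.47 ± 1.37 CPM in WT and from 0.301 ± 0.29 to 2.53 ± 0.74 CPM in KO. Its adjusted p by edgeR was 0.041 in WT and 0.033 in KO, and the call was lost in 12 of 22 other settings in WT and in 8 of 22 in KO, mostly those that left out 1 library.

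**Figure D3:**
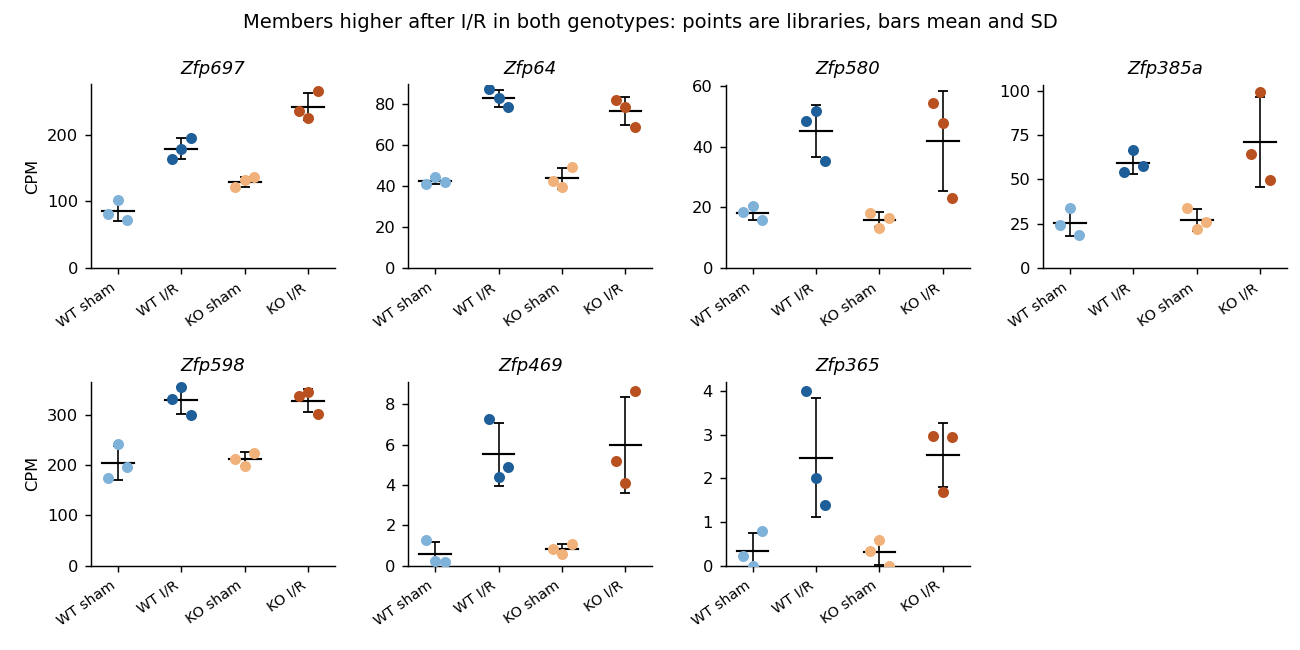
CPM (y axis, linear from 0) of the 7 members that rose in both genotypes, with 1 point per library, a line at the mean and a bar of 1 SD over the 3 libraries of each group. In each gene the I/R points lie above the sham points of the same genotype, as for Zfp64 at 78.9 to 87.3 CPM in WT I/R against 41.3 to 44.5 CPM in WT sham.

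In both genotypes 2 members fell, Zbtb20 and Zfp236 (1.67%, where 6.85% of all genes did so). Zbtb20, a BTB factor known as a repressor of alpha-fetoprotein in mouse liver, stood at 354, 288 and 384 CPM in WT sham and at 152, 141 and 146 CPM in WT I/R. In KO it stood at 207, 394 and 685 CPM in sham and at 167, 127 and 209 CPM in I/R. The WT groups were far apart, whereas the highest KO I/R library lay just above the lowest KO sham library. The fall was 2.34-fold in WT (log2 -1.22 ± 0.36 SE, edgeR adjusted p = 0.031) and 2.56-fold in KO (log2 -1.36 ± 0.36 SE, edgeR adjusted p = 0.019). Without KO sham 3, the KO change was log2 -0.84 (edgeR adjusted p = 0.051).

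Zfp236, the member with 30 fingers on chromosome 18, stood at 74.2, 59.7 and 95.8 CPM in WT sham and at 39.2, 30.7 and 24.04 CPM in WT I/R. In KO it stood at 91.3, 91.3 and 89.1 CPM in sham and at 51.6, 14.0 and 45.6 CPM in I/R. The groups did not overlap in either genotype, and the fall was 2.44-fold in both (edgeR adjusted p = 0.039 and 0.035). KO I/R 2 gave the lowest value from its count column, and 44.6 CPM from its FPKM column. With the recovered reads the KO change was log2 -0.94 (edgeR adjusted p = 0.0087).

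In WT and not in KO, 3 members passed downward, namely Zkscan3, Zfp39 and Zfp882. Zkscan3, a repressor of autophagy genes in human cells, stood at 232, 196 and 339.6 CPM in WT sham and at 92.4, 79.4 and 85.2 CPM in WT I/R. In KO it stood at 126, 199 and 74.8 CPM in sham and at 88.1, 52.7 and 165 CPM in I/R. The WT groups did not overlap and the KO groups did. The change was log2 -1.58 ± 0.43 SE in WT (edgeR adjusted p = 0.023) and -0.39 in KO (edgeR adjusted p = 0.53), and the test of the difference gave log2 1.19 with an edgeR adjusted p of 0.97. The KRAB gene Zfp39 went from 17.4 ± 7.16 to 7.02 ± 1.06 CPM in WT (edgeR adjusted p = 0.021). In KO it was at 12.99 ± 2.82 CPM in sham and 7.72 ± 1.08 CPM in I/R, without overlap (edgeR adjusted p = 0.14). The KRAB gene Zfp882 went from 5.69 ± 2.05 to 1.15 ± 0.77 CPM in WT (edgeR adjusted p = 0.029). Each of the 5 falls in WT lost its call when WT I/R 2 was left out, with an edgeR adjusted p of up to 0.134 over the alternatives.

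In KO the KRAB genes Zfp316, Zfp866, Zfp563, Zfp781 and Zfp965 passed downward. Zfp316 stood at 60.3, 60.4 and 52.8 CPM in KO sham and at 26.8, 21.4 and 30.3 CPM in KO I/R. In WT it stood at 49.5, 31.4 and 50.6 CPM in sham and at 24.1, 23.6 and 38.5 CPM in I/R. The KO groups were well apart and the WT groups overlapped. Its fall was 2.21-fold in KO (log2 -1.14 ± 0.28 SE, edgeR adjusted p = 0.013) and its change in WT was log2 -0.61 (edgeR adjusted p = 0.14). Zfp866 stood at 56.1, 48.4 and 49.6 CPM in KO sham and at 24.99, 16.4 and 34.2 CPM in KO I/R, a fall of 2.04-fold (edgeR adjusted p = 0.023). In WT its libraries did not overlap either, at 37.7 to 50.8 CPM in sham and 21.4 to 28.7 CPM in I/R, with log2 -0.83 and an edgeR adjusted p of 0.056.

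Zfp563 fell from 18.3 ± 1.69 to 9.12 ± 1.11 CPM in KO, and was at 17.1 ± 4.92 and 10.2 ± 1.96 CPM in WT, without overlap in either genotype. Its count in KO I/R 2 gave 7.94 CPM and the recovered reads 0.380 CPM, and with those the KO change was log2 -1.47 and did not pass (edgeR adjusted p = 0.118). Zfp965 stood at 7.74, 7.16 and 8.32 CPM in KO sham and at 0.925, 0.481 and 1.48 CPM in KO I/R. It stood at 4.003, 5.01 and 8.07 CPM in WT sham and at 3.10, 3.66 and 4.36 CPM in WT I/R, where the groups overlapped. Its log2 change was -2.95 ± 0.47 SE in KO (edgeR adjusted p = 0.0018), but -1.77 (edgeR adjusted p = 0.023) with the recovered reads, which put KO I/R 2 at 4.37 CPM. Zfp965 shares its whole coding sequence with Zfp973 at 100% identity, and Zfp781 is a near copy of the predicted gene Gm3055, so the counting may have split their reads. The non-KRAB gene Zfp366, a regulator known from dendritic cells, fell from 18.7 ± 2.47 to 8.02 ± 3.68 CPM in KO. With whole-library totals and recovered reads, Zfp316, Zfp866, Zfp563, Zfp781, Zfp236 and Zfp366 no longer passed in KO (edgeR adjusted p between 0.055 and 0.192), and Zbtb20 and Zfp965 still did. The split in KO was then 8 rises to 2 falls in place of 8 to 8. This scaling also moved the all-gene median up. The share of all genes called under it is not given here, so the split is no result about members alone. Without KO I/R 2, Zfp866, Zfp563, Zfp366, Zfp781 and Zbtb20 missed the threshold (edgeR adjusted p between 0.056 and 0.126).

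**Figure D4:**
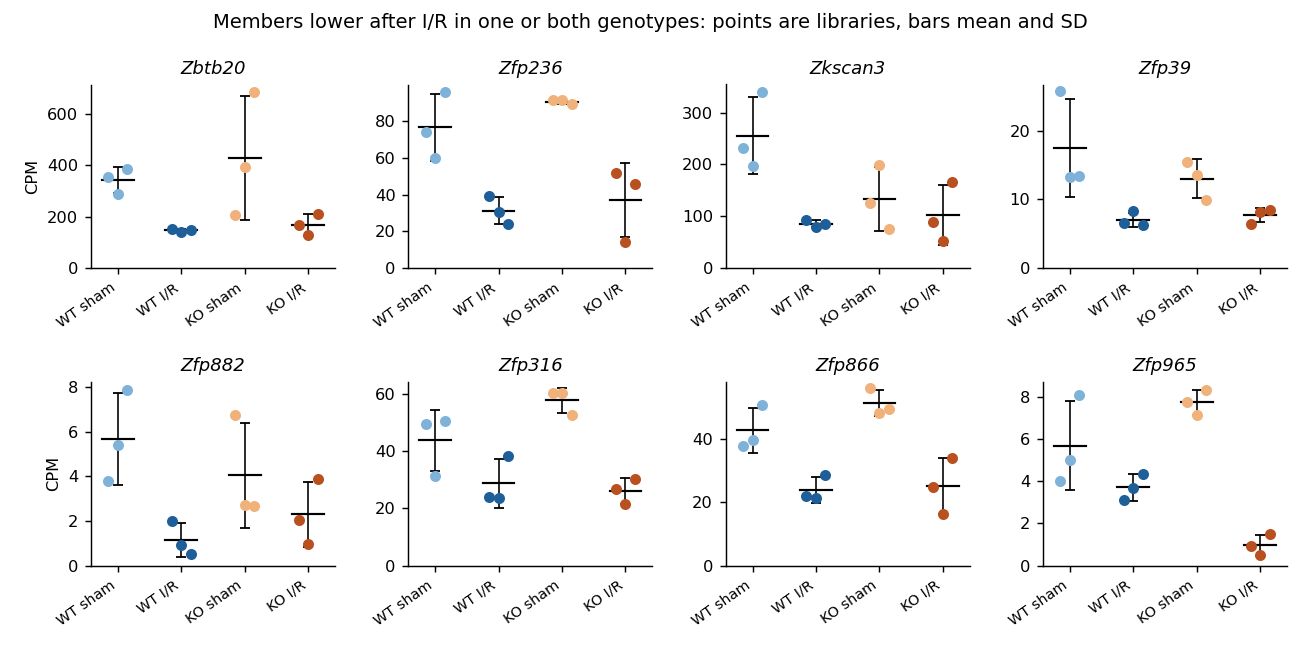
CPM (y axis, linear from 0) of 8 members that fell in WT, in KO or in both, with 1 point per library, a line at the mean and a bar of 1 SD over the 3 libraries of each group. Zbtb20 and Zfp236 are low in both I/R groups, Zkscan3 is at 79.4 to 92.4 CPM in WT I/R against 196 to 339.6 CPM in WT sham with overlap in KO, and Zfp965 is at 0.481 to 1.48 CPM in KO I/R.

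In a few members with large fold changes single libraries stood out. Zbtb9 passed upward in KO at log2 4.24 ± 1.41 SE (edgeR adjusted p = 0.048). It stood at 22.0 CPM in KO I/R 1 and at 2.17 and 2.40 CPM in the other KO I/R libraries, and at 16.6 CPM in WT sham 1 against 0.601 and 0.984 CPM in the other WT sham libraries. All of its coding sequence is shared with Ggnbp1, so its reads may be split, and without KO I/R 1 its log2 change was 2.29 (edgeR adjusted p = 0.26). The KRAB gene Zfp101 stood at 37.3, 39.2 and 50.2 CPM in WT sham and at 7.29, 10.1 and 11.2 CPM in WT I/R. In KO it stood at 29.8, 50.9 and 1.61 CPM in sham and at 6.11, 5.29 and 14.2 CPM in I/R. Its log2 change of -2.15 ± 0.78 SE in WT missed the threshold (edgeR adjusted p = 0.069), and KO sham 3, the library rich in mitochondrial counts, was the lowest of all 12. Zfp36l2, of the CCCH type, ranged from 132 to 382 CPM in WT sham and from 66.0 to 417 CPM in KO sham, and its log2 changes of -0.94 and -1.09 did not pass.

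The changes in the genotypes are compared in the plot of one against the other. Of the 120 members, 68 lay below 0 in both, 24 above 0 in both and 28 on opposite sides. Of the 19 members called in either genotype, 9 were called in both (47.4%, against 45.9% of the 1537 genes called in either), and 0 members and 2 of all genes were called in opposite directions. Across members the changes correlated with Pearson's r of 0.485 and Spearman's rho of 0.554, against 0.814 and 0.794 across all genes tested. These are correlations across genes, which are not independent replicates, and the 2 contrasts share no library.

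**Figure D5:**
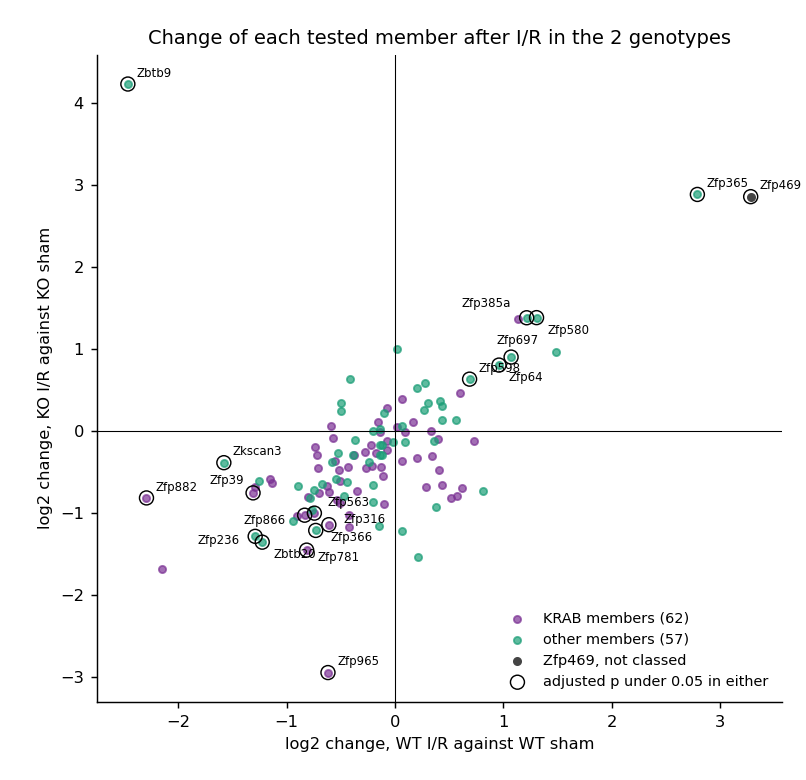
log2 change after I/R in KO (y axis) against that in WT (x axis) for the 120 tested members, coloured by class, with circles around the 19 called in either genotype by edgeR at an adjusted p under 0.05. The 7 shared rises lie at the upper right and are not KRAB members, Zbtb20 and Zfp236 lie together at the lower left, and Zbtb9 stands alone at the upper left.

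No member differed between the labelled genotypes by the test. In KO sham against WT sham, 0 members and 0.0% of all genes passed with edgeR, and 8 members had an unadjusted p under 0.05, where 5.65% of all genes did. In KO I/R against WT I/R the counts were 0 members, 0.0% of all genes and 3 members at the unadjusted level, where 2.77% of all genes reached it. For the interaction of genotype and I/R they were 0, 0.0% and 4 members, where 5.25% of all genes reached it. Without overlap between genotypes, 7 members were higher and 1 lower in KO sham, where all genes gave 4.85% and 5.39%, and 9 were higher and 3 lower in KO I/R, where all genes gave 4.54% and 4.89%. DESeq2 called 0 members in each of the 3, and 28, 2 and 13 of all genes. The median log2 difference of members was 0.10 in sham, 0.03 after I/R and -0.08 for the interaction. Library medians spread by a pooled SD of 0.116 within groups. By group the SD was 0.053 in WT sham, 0.087 in KO sham, 0.048 in WT I/R and 0.203 in KO I/R. The 3 KO sham medians (0.08 to 0.23) lay above the 3 WT sham medians (-0.05 to 0.05). Zfp697 had the smallest p of the members in sham, at log2 0.61 ± 0.20 SE (edgeR adjusted p = 0.71), and was higher in 3 of 3 KO libraries in both surgeries. Zfp965 had the smallest p after I/R, at log2 -1.89 ± 0.47 SE (edgeR adjusted p = 1.0), and for the interaction, at log2 -2.33 ± 0.62 SE (edgeR adjusted p = 0.61).

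Among the partners through which these families act, the KRAB corepressor Trim28 rose. It stood at 235, 305 and 279 CPM in WT sham and at 437, 470.3 and 399 CPM in WT I/R. In KO it went from 284, 275 and 245 CPM in sham to 434, 511 and 360.1 CPM in I/R. The groups did not overlap, and the log2 changes were 0.67 ± 0.20 SE in WT and 0.70 ± 0.20 SE in KO (edgeR adjusted p = 0.034 and 0.027). Chd3, a chromatin remodeller of the NuRD complex, fell from 1169 ± 325 to 422 ± 32.3 CPM in WT and from 1210 ± 412 to 496 ± 97.1 CPM in KO (edgeR adjusted p = 0.0047 and 0.0086). Of 8 measured corepressors of KRAB proteins, 1 rose and 2 fell in WT, the other being Trim33, and 1 rose and 1 fell in KO. By comparison, 20.9% of all genes passed in WT and 23.5% in KO, in either direction. Setdb1, the methyltransferase, had log2 changes of -0.47 in WT and -0.79 in KO that did not pass (edgeR adjusted p = 0.26 and 0.068). None of 4 measured BTB corepressors passed in either genotype.

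Among 22 tested C2H2 factors outside the families, 2 rose and 2 fell in WT, and 0 rose and 2 fell in KO, where 20.9% and 23.5% of all genes passed in either direction, and their median log2 changes were -0.64 and -0.53. Snai1, a factor of mesenchymal transition, rose from 5.10 ± 1.81 to 20.4 ± 2.86 CPM in WT (edgeR adjusted p = 0.0064), and Prdm16 fell in both genotypes by log2 -1.34 and -1.20 (edgeR adjusted p = 0.023 and 0.034). Of 3 tested genes listed as partners of the CCCH-type protein Zfp36 in the decay of AU-rich mRNA, the kinase gene Mapkapk2 rose in both genotypes. Its log2 changes were 0.71 ± 0.19 SE and 1.05 ± 0.19 SE (edgeR adjusted p = 0.021 and 0.0030), and Cnot1 and Cnot8 did not pass. These lists were taken from general knowledge of the pathways with earlier results of these data known. Only part of each list was in the table as used here. It held 8 of 24 KRAB corepressors and 4 of 16 BTB corepressors. Of the other C2H2 factors it held 32 of 102, and of the decay partners 3 of 15.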

How the data were processed

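RNA sequencing of kidney from 4 groups of 3 libraries was analysed from 1 table. For each library the authors deposited a column of raw counts and one of FPKM, per the file headers. Per the labels' protocols, RNeasy columns were used for total RNA and TruSeq for paired-end libraries. The submitters' processing notes name HISAT2 and StringTie. Build, counting rules and strand use were not given in the sources used here, and 133 of the 135 member loci equal those of GENCODE M21 on GRCm38.

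Counts as deposited were tested with edgeR 4.0.16 in R 4.3.3 (quasi-likelihood test, TMM factors, filterByExpr with minimum count 10 and minimum total 15, 1 model of 4 groups). Benjamini-Hochberg adjustment ran over the 5048 genes tested, and an adjusted p under 0.05 is called. CPM are counts scaled to library size with TMM factors, and log2 CPM used a prior count of 2. Standard errors are the log2 change divided by the root of its F value. For KO I/R 2, whole reads were recovered from the FPKM column, where 99.985% of values were within 0.05 of a whole read. The 11 other libraries gave back 100% of their counts, and the steps gave relative whole-library totals. Coding sequences of GENCODE M21 were searched for finger and KRAB A box patterns and aligned with BLAST 2.17.0. The fit was tested on simulated data.

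Alternatives were RLE factors, whole-library totals, other filters (none, or 5 CPM in 3 libraries), DESeq2 1.42.0, the 2 groups alone, the replicate number as a block, a log2 threshold of 1, recovered reads, limma 3.58.1 on log2(FPKM + 1) and each library left out. Chosen after seeing the data were recovered reads with whole-library totals, recovered reads without KO sham 3, the omission of KO sham 1 and 3, and the KRAB split. The members and lists were chosen with earlier results of these data known. Named members are called members whose groups do not overlap (10 largest each way, at least 5 CPM in a group), the 2 of smallest p per symbol family, the 5 of highest WT sham FPKM and the CCCH-type members. Zfp101, Zfp992, Zbtb9, Zfp365 and the other called members of lower level or with overlap were named after their values were seen.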

Additional observations from a re-analysis of the deposited data

Results flagged for a closer look

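Zkscan2 and Zfp951 had a count of 0 in KO I/R 2 while the FPKM column of the same library, which enters the alternatives but not the main test, holds a signal for them. It corresponds to 5 reads for Zkscan2, which had 2 to 11 counts in the other 11 libraries, and to 18 reads for Zfp951, which had 3 to 24. Over all members, the count in KO I/R 2 was below the recovered reads for 97 members, above them for 25 and equal for 13.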

How the results depend on the processing

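The 12 members called in WT and 16 in KO with edgeR moved with the settings. In WT the count was 22 with DESeq2, 21 with recovered reads for KO I/R 2, 28 with these and without KO sham 3, 27 with only the groups of the contrast and 1 with a log2 threshold of 1. In KO it was 8 with whole-library totals, 10 with these and recovered reads, 2 with a log2 threshold, 2 with only the groups of the contrast, 5 without KO sham 1 and 3, and 30 with recovered reads and without KO sham 3. Leaving out 1 library gave 3 to 21 in WT: 5, 3 and 6 without WT I/R 1, 2 and 3, 6 and 5 without WT sham 1 and 3, 19 without KO I/R 2 and 21 without KO sham 3. In KO it gave 9 to 20: 9 without KO sham 1 or without KO sham 2, and 10 without WT I/R 2. The cause of these moves was not tested. The shares of all genes called under these settings are not given here, so the counts do not set members against all genes. Among the called members, no alternative reversed the direction of the change. Over the alternatives other than the log2 threshold, the calls of Zfp697, Zfp64 and Zfp469 in WT and of Zfp965 in KO were lost in none of 24, and each other call was lost in 1 to 17. The member median in WT, -0.20, was -0.0523 both with whole-library totals alone and with recovered reads added, and -0.0191 on log2(FPKM + 1), and leaving out 1 library gave -0.30 to -0.16. In KO, -0.36 became -0.20 with whole-library totals and recovered reads and -0.0612 on log2(FPKM + 1), and leaving out 1 library gave -0.41 to -0.27. In KO I/R against WT I/R the median of 0.03 became -0.092 with whole-library totals. Leaving out 1 library gave 0 called members and medians of 0.04 to 0.15 in sham, -0.00095 to 0.095 after I/R and -0.16 to -0.05 for the interaction. Deviations of same-numbered libraries correlated at -0.37 to 0.30, with 5 of 18 pairs over 0.1. Of the 12 libraries, 7 correlated best with their own number. With 3 libraries a group, whether the numbers pair the samples cannot be told from these values. With the replicate block, 12 members were called in WT and 16 in KO, and Zfp365 was not among them (edgeR adjusted p = 0.066 and 0.057). Low counts kept 15 members, with at most 72 over all libraries, from being tested. Low counts also limit the precision for tested members such as Zfp365, with 90 over all libraries.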
